A study of Homo sapiens with 6 samples.

Results

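The genes described here are 34 genes of glycolysis and of the response to low oxygen in BT-549 cells, an established human triple-negative breast cancer line. They were chosen by name from the 37887 gene symbols counted, with earlier results of these data known. They comprise 2 glucose transporters, 15 enzymes that carry glucose to pyruvate, 2 lactate dehydrogenase subunits, 3 enzymes that set the flow along that route and 12 genes of oxygen sensing and of the hypoxia response. RNA was sequenced from 3 control cultures given 0.1% DMSO and from 3 IRF1shRNA cultures given 500 ng/ml doxycycline, and the labels do not give the length of treatment. The IRF1shRNA samples carry a short hairpin RNA against IRF1, a transcription factor of the interferon response, under a doxycycline-inducible promoter. By their titles the DMSO samples carry a control shRNA, but the series text speaks of 1 inducible IRF1 shRNA line with or without doxycycline. Under either reading doxycycline was given only to the IRF1shRNA cultures, so the drug and the hairpin cannot be told apart. The data cover 1 cell line, and the labels do not say which IRF1 hairpin was used or whether the line was a clone or a pool.

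Glycolysis splits glucose into pyruvate in the cytosol, and lactate dehydrogenase turns pyruvate into lactate, which regenerates the cofactor that the route consumes. When oxygen is short, prolyl hydroxylases no longer mark the HIF-1α protein for destruction, and the HIF-1 dimer binds a short DNA element that holds the letters RCGTG. Many glycolytic genes are known HIF-1 targets, as are genes for pH control, blood vessel growth, mitophagy and collagen modification. Many tumor cells run the route to lactate even with oxygen present.

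Total counts per library ranged from 55143808 to 160436234, with IRF1shRNA 2 the lowest, so that 3 counts, taken as the limit of detection, corresponded to between 0.0182 and 0.054 CPM, which is a gene's count divided by its library's total and put on a common scale. Expression is given below as CPM scaled by TMM factors, as mean ± SD over 3 samples, and the limit covers counting error only. IRF1 itself measured 45.3, 48.1 and 51.5 CPM in controls 1 to 3 and 13.8, 14.9 and 14.6 CPM in the IRF1shRNA samples, so that the silenced samples held 29.9% of the control level (log2 fold change -1.75 ± 0.06 SE, adjusted p = 4.53e-13, edgeR's quasi-likelihood test). As to identity, the mesenchymal genes VIM, CDH2, ZEB1, FN1 and CD44 were abundant, at control means from 87.2 CPM for ZEB1 to 1548 CPM for CD44, whereas the epithelial genes EPCAM, CDH1 and ESRP1 had control means from 0.0714 to 0.730 CPM. Of these 5 mesenchymal genes, 4 were called lower in the IRF1shRNA samples, with VIM at 68.0% of the control level (log2 fold change -0.56 ± 0.05, adjusted p = 3.10e-08), FN1 at 79.0%, CD44 at 82.8% and ZEB1 at 91.1%, and CDH2 did not pass. Of all genes tested with a mean of at least 10 CPM, 36.1% were called lower. The part of these mesenchymal genes in the results on the 34 genes was not tested. The estrogen receptor gene ESR1 had at most 12 counts in any library and the progesterone receptor gene PGR a control mean of 0.244 CPM, while the HER2 gene ERBB2 measured 50.8 ± 3.67 CPM in the controls. Among blood and endothelial markers, PTPRC had a control mean of 0.526 CPM, and CD3E, HBB, PECAM1 and CDH5 had too few counts for the test. The scarce ESRP1 was also called lower, at 58.5% of the control level (adjusted p = 0.00788), as was ERBB2 at 71.6% (adjusted p = 1.47e-06). EPCAM, CDH1, PGR and PTPRC did not pass. In bulk RNA, fewer cells of a kind and less RNA per cell cannot be told apart.

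Glycolytic and hypoxia genes were lower in the IRF1shRNA samples across most of the list. Of the 33 members that had enough counts for the test, 27 passed an adjusted p of 0.05 as lower, 2 as higher and 4 did not pass. Among all 18851 genes tested, 26.4% were called lower and 24.1% higher. The members were chosen with earlier results of these data known, so these counts are a description and not a test of the list. The call as lower held for 26 of the 30 members with a mean of at least 10 CPM, where 36.1% of all genes of that abundance were called lower. The log2 fold changes of the members ran from -1.91 to 0.45 with a median of -0.46, while the median over all genes tested was -0.0024. The 2 members called higher were SLC2A3 and BNIP3L, and the 4 that did not pass were ALDOA, PFKFB3, EGLN1 and ANKRD37. EGLN3, a prolyl hydroxylase, had between 3 and 15 counts per library and was left out of the test.

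Most of the decreases were moderate. Only 5 members, CA9, PFKFB4, CA12, ADM and VEGFA, were called lower with a change of more than 2-fold, against 4.43% of all genes tested, and no member was called higher by that much. In 27 members every IRF1shRNA sample lay below every control, which was the case for 29.5% of all genes tested. Replicates were close together: the median coefficient of variation over the members was 5.3% in the controls and 4.1% in the IRF1shRNA samples, and the widest was 24.9%, for SLC2A3 in the controls. Control 3 had the highest value of the controls in 27 of the 33 members, against 36.9% of all genes tested. Relative to the control mean, the members' median stood at -0.07, -0.0045 and 0.07 on the log2 scale in controls 1 to 3, and at -0.45, -0.43 and -0.47 in the IRF1shRNA samples.

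**Figure D1:**
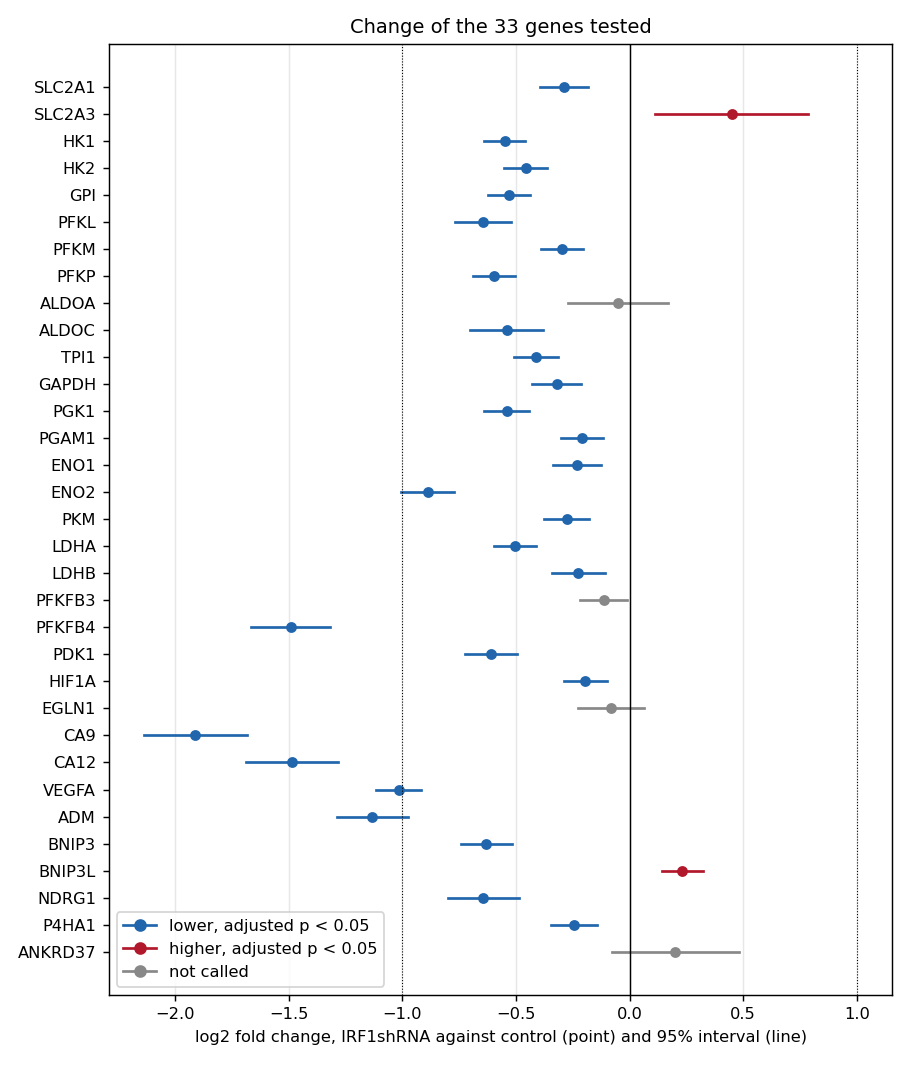
Log2 fold change of each tested member, IRF1shRNA against control, with its 95% interval, ordered by role and colored by call, with dotted lines at a 2-fold change. Points left of 0 are lower in the IRF1shRNA samples; 27 members were called lower, 2 higher, and 4 did not pass, and the lowest estimate is that of CA9 at -1.91.

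These are abundant transcripts, and their share of the library fell. The 34 members together made up 1.48%, 1.53% and 1.59% of all counts in controls 1 to 3 and 1.24%, 1.26% and 1.26% in the IRF1shRNA samples, with no overlap. Most of that share came from the route from glucose to lactate, at 1.39% ± 0.0549 in the controls and 1.14% ± 0.00828 in the IRF1shRNA samples. The median member stood at the 88.2 percentile of expression among all genes tested. Within the list the change did not follow abundance: Spearman's rho between the control level in CPM per kilobase and the log2 fold change was 0.15 across the 33 genes, given as a description, since genes are not independent replicates.

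**Figure D2:**
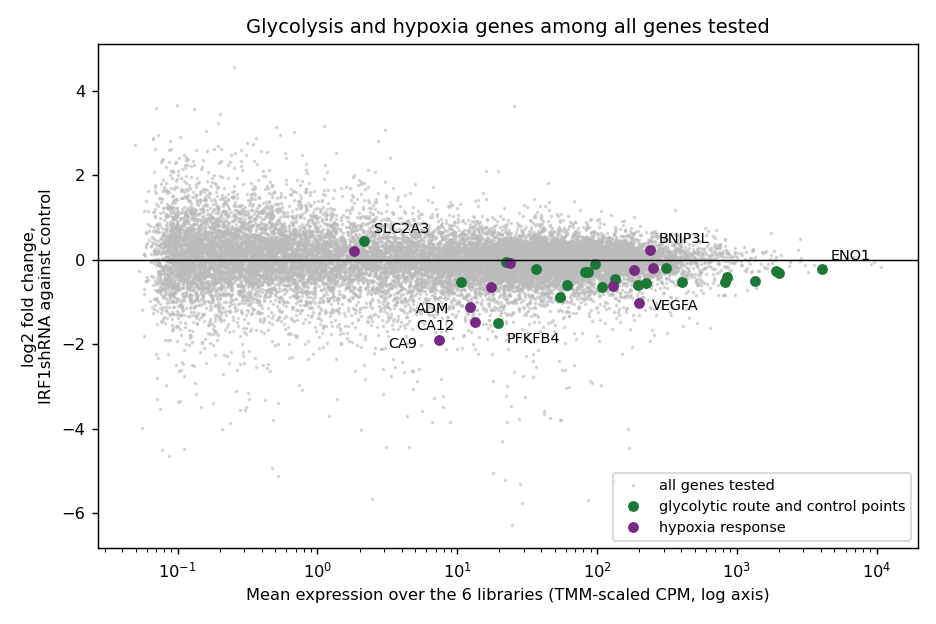
Log2 fold change of every gene tested against its mean expression in TMM-scaled CPM (log axis), with glycolytic and control-point members in green and hypoxia members in purple. Most members sit in the abundant part of the cloud and below 0, with CA9, CA12, PFKFB4 and ADM the farthest down and BNIP3L and SLC2A3 above 0.

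Glucose enters the cell through the GLUT transporters, and the 2 listed here moved in opposite directions. SLC2A1, which encodes GLUT1, measured 84.3, 90.2 and 97.1 CPM in the controls and 75.4, 71.4 and 75.5 CPM in the IRF1shRNA samples. Its groups did not overlap, and it fell to 81.8% of the control level (log2 fold change -0.29 ± 0.05, adjusted p = 1.22e-04). SLC2A3, which encodes the high-affinity transporter GLUT3, was scarce, at 2.03, 1.31 and 2.15 CPM in the controls and 2.27, 2.67 and 2.61 CPM in the IRF1shRNA samples. It was called higher (0.45 ± 0.16, adjusted p = 0.0257), but the gap between the groups was small and control 2 lay well below the other controls. Without control 2 the difference was 0.26 with an adjusted p of 0.143, without IRF1shRNA 2 it was 0.42 with 0.0682, and without IRF1shRNA 3 it was 0.42 with 0.0881. Per kilobase of exon SLC2A3 was 1.53% ± 0.377 of the pair in the controls and 2.54% ± 0.267 in the IRF1shRNA samples, so that SLC2A1 carried nearly all of the pair's counts.

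The first steps, which trap and phosphorylate glucose, were lower as a group. Hexokinase 1, encoded by HK1, measured 259, 273 and 273 CPM in the controls and 178, 189 and 183 CPM in the IRF1shRNA samples (log2 fold change -0.55 ± 0.04, adjusted p = 9.13e-09). Its inducible relative HK2 went from 156 ± 6.94 to 114 ± 3.12 CPM (-0.46 ± 0.04, adjusted p = 1.58e-07). GPI, the isomerase that makes fructose 6-phosphate, went from 479 ± 21.8 to 332 ± 7.06 CPM (-0.53 ± 0.04, adjusted p = 2.49e-08). The summed hexokinase level per kilobase stood at 70.1% of the control, and that of GPI at 69.3%.

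Phosphofructokinase commits the sugar to glycolysis, and all 3 of its genes fell. PFKL, the liver-type subunit, measured 123, 133 and 145 CPM in the controls and 82.7, 81.7 and 91.7 CPM in the IRF1shRNA samples (-0.64 ± 0.06, adjusted p = 6.45e-08). The platelet-type gene PFKP went from 237 ± 10.8 to 157 ± 3.12 CPM (-0.60 ± 0.04, adjusted p = 4.90e-09). The muscle-type gene PFKM fell less, from 94.7 ± 2.29 to 77.1 ± 3.16 CPM (-0.30 ± 0.04, adjusted p = 1.88e-05). Per kilobase of exon, PFKP made up 63.7% ± 0.358 of the phosphofructokinase level in the controls and 61.7% ± 0.495 in the IRF1shRNA samples. In CPM without the length correction its share was 50.95% and 49.09%, so the size of these shares depends on the exon lengths used. The share of PFKM was 17.5%, 16.6% and 16.5% in the controls and 19.8%, 21.2% and 19.2% in the IRF1shRNA samples, with no overlap, while the shares of PFKL overlapped.

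**Figure D3:**
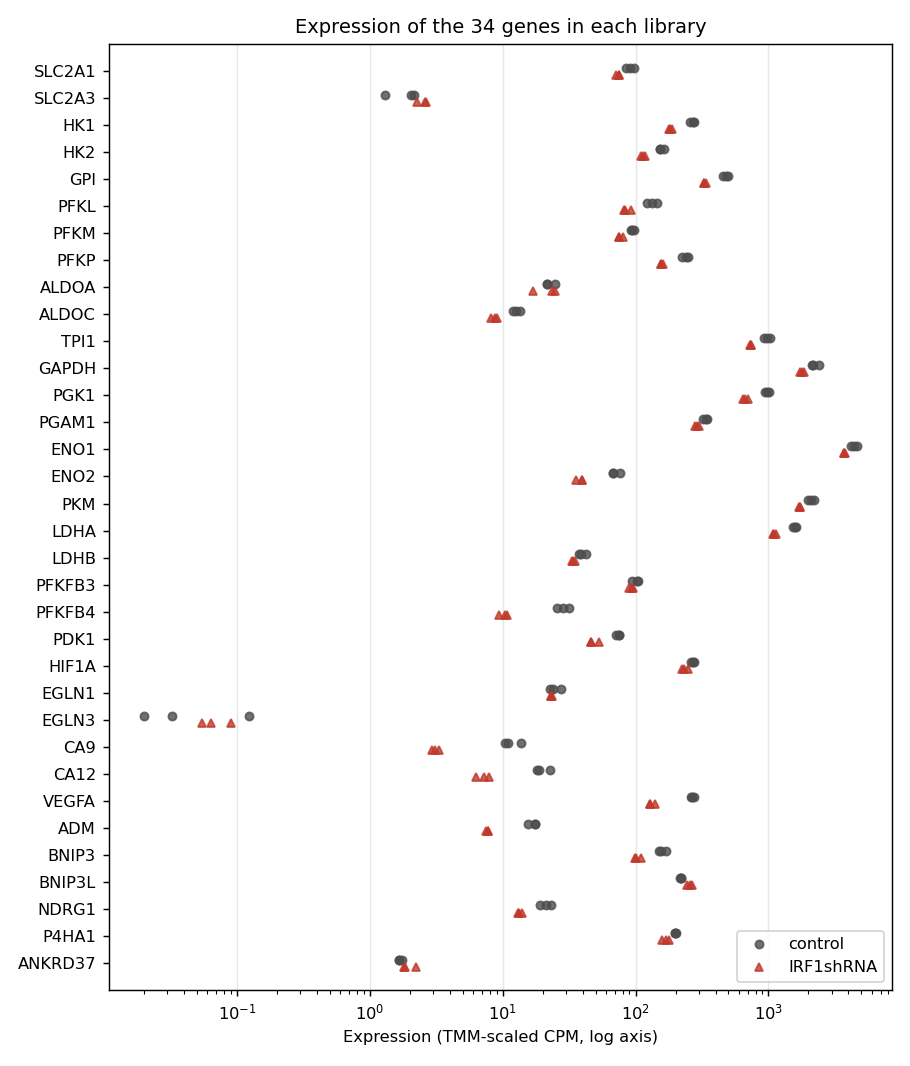
Expression of the 34 genes by sample, in TMM-scaled CPM on a log axis, with 3 control (circles) and 3 IRF1shRNA (triangles) samples per gene. The IRF1shRNA points of CA9, PFKFB4, CA12, ADM, VEGFA and ENO2 lie below their controls, and those of BNIP3L lie above.

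Aldolase was the step with the least clear change. ALDOA, the isozyme of most tissues, measured 21.7, 21.6 and 24.9 CPM in the controls and 23.7, 16.9 and 24.8 CPM in the IRF1shRNA samples, and the groups overlapped. Its log2 fold change was -0.05 ± 0.10, with a 95% interval of -0.27 to 0.17 and an adjusted p of 0.717, and without IRF1shRNA 2, the shallowest library, the estimate was 0.09. Its level of 5.81 CPM per kilobase lay far below the 362 CPM per kilobase of TPI1, the next enzyme. In the GENCODE 29 annotation 42.3% of the exon bases of ALDOA are shared with a second gene on the same strand, AC093512.2, so its count is uncertain. ALDOC, the brain-type isozyme, went from 12.7 ± 0.827 to 8.71 ± 0.452 CPM (-0.54 ± 0.08, adjusted p = 1.05e-05). ALDOA made up 57.3% ± 0.948 of the pair per kilobase in the controls and 64.8% ± 4.87 in the IRF1shRNA samples, with no overlap.

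Triose phosphate isomerase and the enzymes after it held the most abundant members. TPI1 went from 979 ± 49.1 to 735 ± 6.70 CPM (-0.41 ± 0.05, adjusted p = 7.12e-07). GAPDH, often used as a reference gene, measured 2139, 2183 and 2386 CPM in the controls and 1780, 1847 and 1742 CPM in the IRF1shRNA samples, and thus fell to 80.0% of the control level (-0.32 ± 0.05, adjusted p = 3.63e-05). PGK1, which yields the first ATP of the route, measured 941, 984 and 1016 CPM against 648, 706 and 668 CPM (-0.54 ± 0.05, adjusted p = 3.91e-08). PGAM1, the mutase that follows, fell least of the clearly lower enzymes, from 336 ± 12.9 to 291 ± 7.93 CPM (-0.21 ± 0.04, adjusted p = 6.48e-04). PKM, pyruvate kinase, went from 2092 ± 109 to 1727 ± 17.6 CPM (-0.28 ± 0.05, adjusted p = 9.71e-05). GAPDH, PGK1, TPI1, PGAM1 and ENO1 have near-identical processed pseudogenes, so a part of their reads may be assigned elsewhere.

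Enolase, the step before pyruvate kinase, has a dominant and a minor gene here. ENO1, the general enolase, was the most abundant member at 4164, 4382 and 4629 CPM in the controls and 3715, 3770 and 3733 CPM in the IRF1shRNA samples, a decrease to 85.1% (-0.23 ± 0.05, adjusted p = 7.59e-04). ENO2, the neuron-type enolase, measured 68.1, 67.6 and 76.2 CPM in the controls and 35.6, 39.5 and 39.5 CPM in the IRF1shRNA samples. It fell to 54.1% of the control level (-0.89 ± 0.06, adjusted p = 5.18e-10), the lowest estimate on the route from glucose to lactate. Even so, ENO2 was only 1.94% ± 0.0676 of the enolase transcripts per kilobase in the controls and 1.24% ± 0.0660 in the IRF1shRNA samples.

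Lactate dehydrogenase closes the route. LDHA, the subunit that predominates where lactate is made, measured 1525, 1594 and 1605 CPM in the controls and 1091, 1145 and 1097 CPM in the IRF1shRNA samples (-0.50 ± 0.04, adjusted p = 4.56e-08). LDHB measured 42.5, 37.8 and 38.7 CPM against 33.8, 34.8 and 33.2 CPM (-0.23 ± 0.05, adjusted p = 0.00231). Both subunits were lower without overlap, and LDHB made up 4.99% ± 0.428 of the pair per kilobase in the controls and 5.98% ± 0.0742 in the IRF1shRNA samples. LDHB shares 33.4% of its exon bases on the same strand with AC010197.2, so its level is uncertain.

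Added up by step, each of the 12 steps from glucose uptake to lactate was lower in all IRF1shRNA samples than in all controls. The summed levels per kilobase ranged from 68.3% of the control for phosphofructokinase and 68.8% for PGK1 to 86.6% for PGAM1. Lactate dehydrogenase stood at 71.3%, triose phosphate isomerase at 75.1%, GAPDH at 80.0%, pyruvate kinase at 82.6%, glucose transport at 82.7%, aldolase, with the uncertain ALDOA, at 84.3% and enolase at 84.5%. Relative to the controls, the lowest levels were thus found at hexokinase, GPI, phosphofructokinase and PGK1, followed by lactate dehydrogenase.

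**Figure D4:**
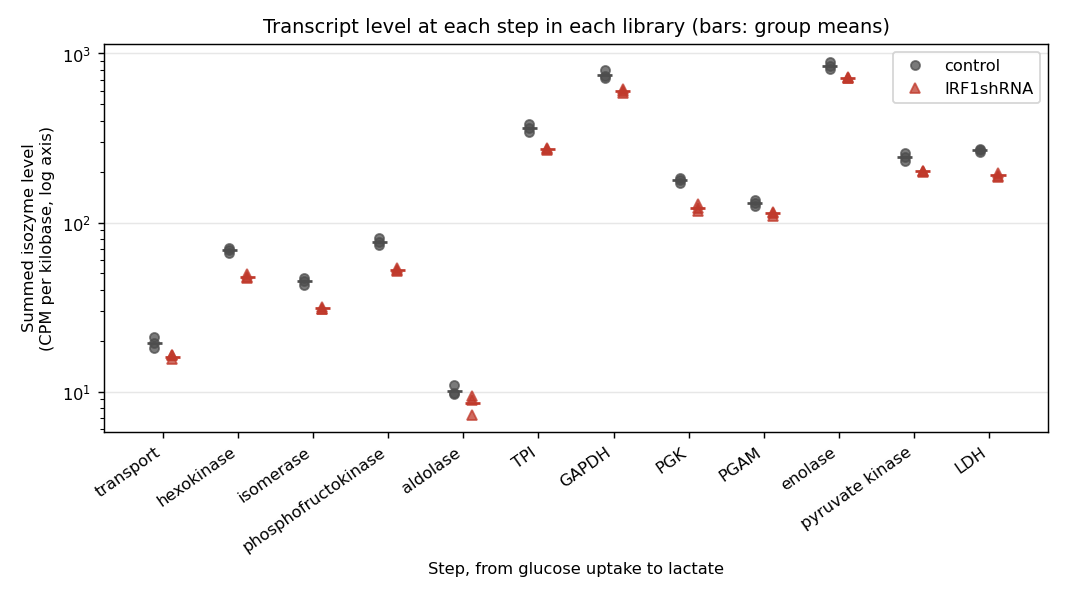
Summed expression of the listed genes of each step from glucose transport to lactate dehydrogenase, in CPM per kilobase of exon on a log axis, with a point per sample and a bar at each group mean. At all 12 steps the IRF1shRNA samples lie below the controls, with means between 68.3% and 86.6% of the control mean.

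The 3 enzymes that set the flow behaved differently. PFKFB4 makes and degrades fructose 2,6-bisphosphate, the activator of phosphofructokinase, and measured 25.5, 28.6 and 31.8 CPM in the controls and 9.35, 10.8 and 10.5 CPM in the IRF1shRNA samples. It fell to 35.7% of the control level (-1.49 ± 0.08, adjusted p = 1.22e-10). PFKFB3, its relative with the stronger kinase activity, measured 94.3, 103 and 105 CPM in the controls and 89.0, 96.2 and 94.1 CPM in the IRF1shRNA samples, with overlap. Its log2 fold change was -0.11 ± 0.05 with a 95% interval of -0.22 to -0.012 and an adjusted p of 0.0601, close to the threshold. PDK1, the kinase that inhibits pyruvate dehydrogenase, measured 75.5, 75.7 and 70.9 CPM against 46.6, 53.5 and 46.0 CPM (-0.61 ± 0.05, adjusted p = 5.77e-08). Thus 2 of the 3 were called lower, beside 26.4% of all genes tested and 36.1% of those with a mean of at least 10 CPM.

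Of the 12 hypoxia genes, 11 were tested, 8 were called lower, 1 higher and 2 did not pass, with a median log2 fold change of -0.63. Those called lower were 72.7% of the 11 and those called higher 9.09%, against 26.4% and 24.1% over all genes tested. Among the listed sensing genes, HIF1A and EGLN1 moved little. HIF1A, which encodes the oxygen-regulated subunit of HIF-1, measured 274, 271 and 262 CPM in the controls and 225, 248 and 232 CPM in the IRF1shRNA samples, 87.4% of the control level (-0.19 ± 0.04, adjusted p = 0.00147). HIF-1α is controlled mainly at the protein level, which these counts do not measure. EGLN1, the main prolyl hydroxylase, measured 22.6, 24.0 and 27.3 CPM against 23.5, 23.0 and 23.3 CPM and overlapped between groups. Its difference was -0.08 ± 0.07 (95% interval -0.23 to 0.064, adjusted p = 0.356), and the estimate was 0.0025 without control 3. The inducible relative EGLN3 was near the detection limit in both groups, at 0.0583 ± 0.0558 and 0.0694 ± 0.0184 CPM. Outside the list, related genes moved more. EPAS1 fell to 59.7% of the control level (-0.74 ± 0.04, adjusted p = 2.70e-10) and EGLN2 to 76.9% (adjusted p = 0.00615). HIF1AN rose to 138%, and VHL did not pass (adjusted p = 0.0735).

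The membrane carbonic anhydrases, which help cells export acid, were among the 3 largest decreases of the list, with PFKFB4. CA9 measured 10.9, 10.4 and 13.8 CPM in the controls and 2.94, 3.08 and 3.34 CPM in the IRF1shRNA samples. It fell to 26.6% of the control level (-1.91 ± 0.11, adjusted p = 1.33e-10), and ranked 185 from the lowest log2 fold change among the 18851 genes tested. On the genome, 38.5% of the exon bases of CA9 lie opposite ARHGEF39, which went from 25.2 to 17.6 CPM (-0.51 ± 0.06, adjusted p = 1.61e-06), and whether strand was used in counting is not given in the sources used here. Its part in the CA9 value was not tested. CA12 shares no exon base with another gene, and it measured 18.9, 18.1 and 22.6 CPM in the controls and 6.25, 7.19 and 7.86 CPM in the IRF1shRNA samples (-1.49 ± 0.10, adjusted p = 8.51e-10). Each IRF1shRNA value of both genes was below the lowest control by a wide margin.

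Both secreted vascular factors were lower. VEGFA, the main growth factor for blood vessels, measured 265, 263 and 276 CPM in the controls and 128, 129 and 141 CPM in the IRF1shRNA samples. It fell to 49.4% of the control level (-1.02 ± 0.05, adjusted p = 1.02e-11), close to the 2-fold line. ADM, which encodes the vasodilator peptide adrenomedullin, measured 15.4, 17.4 and 17.6 CPM in the controls and 7.75, 7.80 and 7.51 CPM in the IRF1shRNA samples (-1.13 ± 0.07, adjusted p = 9.37e-10). VEGFA was far more abundant than ADM, at 18.6 against 6.19 CPM per kilobase in the controls.

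The related mitophagy receptors BNIP3 and BNIP3L, both known to rise in hypoxia, went in opposite directions. BNIP3 measured 150, 157 and 171 CPM in the controls and 98.6, 110 and 101 CPM in the IRF1shRNA samples (-0.63 ± 0.05, adjusted p = 2.66e-08). BNIP3L measured 218, 219 and 220 CPM in the controls and 259, 246 and 267 CPM in the IRF1shRNA samples, and was called higher (0.23 ± 0.04, adjusted p = 1.82e-04). Neither gene overlapped between groups. BNIP3L was the only abundant member called higher.

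The remaining targets were mixed. NDRG1, a stress-response gene that is widely used as a hypoxia marker, measured 19.0, 21.3 and 23.0 CPM in the controls and 13.3, 13.1 and 14.1 CPM in the IRF1shRNA samples (-0.64 ± 0.07, adjusted p = 1.23e-06). P4HA1, a subunit of the prolyl hydroxylase that modifies collagen, measured 200, 201 and 199 CPM against 157, 179 and 170 CPM (-0.25 ± 0.05, adjusted p = 3.06e-04). ANKRD37 was scarce, at 1.74, 1.66 and 1.67 CPM in the controls and 1.86, 2.23 and 1.81 CPM in the IRF1shRNA samples. Its groups did not overlap, yet it did not pass (0.20 ± 0.13, 95% interval -0.076 to 0.48, adjusted p = 0.221). On the opposite strand, 35.2% of its exon bases lie within UFSP2, which was called higher (0.50 ± 0.06, adjusted p = 2.74e-06), and the part of UFSP2 in the ANKRD37 value was not tested.

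Promoter sequence was compared with these changes. HIF-1 binds an element that holds RCGTG, with R standing for A or G, and IRF1 binds repeats of GAAA. Only the form ACGTG was searched for HIF-1, so members with GCGTG alone count as without a match. The RefSeq promoter table (GRCh38.p14) held 30 of the 34 members, and the 250 bases before the start site were searched on both strands. The members without a promoter were SLC2A3, VEGFA, BNIP3L and NDRG1. ACGTG was present in 13 of the 30, or 43.3%, against 18.5% of all 35116 promoters and 22.7% of the 12425 tested genes in the table. The IRF motif GAAANNGAA was present in 1 of the 30, or 3.33%, against 6.88% of all promoters and 5.56% of tested genes. Among the members lower by more than 2-fold, only CA9 held ACGTG. PFKFB4, CA12 and ADM had no match, and VEGFA had no promoter to search. Stretches of 30 bases are given for some members that held it. CA9, ENO2, BNIP3 and the abundant enzymes LDHA and PGK1 were called lower, and ANKRD37 did not pass. Capitals mark ACGTG or its reverse complement CACGT, which together read CACGTG where they overlap.

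CA9 (chr9:35673897-35673926, plus strand): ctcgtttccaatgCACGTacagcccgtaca
ENO2 (chr12:6914449-6914478, plus strand): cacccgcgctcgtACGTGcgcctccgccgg
BNIP3 (chr10:131982040-131982069, minus strand): gcgcacgcgccgCACGTGccacacgcaccc
LDHA (chr11:18394470-18394499, plus strand): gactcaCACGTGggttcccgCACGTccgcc
PGK1 (chrX:78104043-78104072, plus strand): cggACGTGacaaacggaagccgCACGTctc
ANKRD37 (chr4:185396676-185396705, plus strand): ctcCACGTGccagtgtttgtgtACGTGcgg

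The CA9 stretch ends next to the start site, with its last base at position -2, while those of PGK1, ANKRD37 and BNIP3 lie farther upstream. A match to these letters is a description of the sequence and not a bound site. ACGTG was found both in members called lower and in members that did not pass. SLC2A3 and BNIP3L, the members called higher, had no promoter to search, so they could not be compared. The 13 tested members with ACGTG had a median log2 fold change of -0.50 and 10 of them were called lower. The 16 without it had a median of -0.36 with 15 called lower. Of all genes tested 26.4% were called lower, and 36.1% of those with a mean of at least 10 CPM. The single IRF motif lay in the ADM promoter, with its letters in capitals.

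ADM (chr11:10304976-10305005, plus strand): ggctgaggaaaGAAAGGGAAggcaaccggg

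Other genes of the same pathways, listed by function with earlier results of these data known, were lower in part. Of 40 other hypoxia genes 36 were tested, and 25 were called lower, 5 higher and 6 did not pass, with a median log2 fold change of -0.36. The shares called were 69.4% lower and 13.9% higher, beside 26.4% and 24.1% of all genes tested. AK4, a mitochondrial adenylate kinase, went from 262 ± 3.81 to 83.5 ± 5.64 CPM (-1.65 ± 0.05, adjusted p = 4.63e-14), and PLOD2, which hydroxylates collagen lysines, from 259 ± 11.7 to 105 ± 4.32 CPM (-1.31 ± 0.05, adjusted p = 5.19e-13). Among those called higher were HIF1AN, the asparaginyl hydroxylase that blocks HIF-1 activity, from 86.3 ± 0.581 to 119 ± 1.09 CPM (0.47 ± 0.04, adjusted p = 2.74e-08), and ARNT, the partner subunit of HIF-1α (0.33 ± 0.04, adjusted p = 2.71e-06). MIF, in this list, is listed at 0 in all 6 libraries.

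Of 30 other glycolytic genes 23 were tested, and 10 were called lower, 2 higher and 11 did not pass, with a median of -0.16. Those called lower are 43.5% of the 23, beside 26.4% of all genes tested and 36.1% of those with a mean of at least 10 CPM. ADPGK, a glucokinase that uses ADP, went from 36.6 ± 0.957 to 13.3 ± 0.609 CPM (-1.46 ± 0.06, adjusted p = 3.02e-12), and PGM1, which links glycogen to glycolysis, fell as well (-0.71 ± 0.05, adjusted p = 2.65e-09). The 2 called higher, LDHD (1.68 ± 0.30, adjusted p = 1.57e-04) and PFKFB1 (1.41 ± 0.36, adjusted p = 0.00307), were below 1 CPM in both groups.

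Of 10 genes of the pentose phosphate pathway, which branches off at glucose 6-phosphate, 9 were tested and 4 were called lower with none higher, with a median of -0.09. That is 44.4% of the 9, beside 26.4% of all genes tested and 36.1% of those with a mean of at least 10 CPM. They included TALDO1, transaldolase (-0.70 ± 0.05, adjusted p = 1.87e-09), and PRPS2, which makes the ribose donor for nucleotides (-0.60 ± 0.04, adjusted p = 3.46e-09). The genes that take pyruvate into the citric acid cycle showed no common direction. Of 31, 30 were tested, and 13 were called lower and 7 higher with a median of -0.04. Those are 43.3% and 23.3% of the 30, beside 26.4% and 24.1% of all genes tested. Under scaling by library size alone the split was 8 lower and 12 higher. PC, pyruvate carboxylase, went from 27.9 ± 3.10 to 63.0 ± 3.05 CPM (1.17 ± 0.07, adjusted p = 1.44e-10), and MPC1, of the mitochondrial pyruvate carrier, rose too (0.69 ± 0.06, adjusted p = 5.50e-08). SUCLG2, a succinyl-CoA ligase subunit, fell (-0.74 ± 0.05, adjusted p = 1.30e-09), as did PDK3, a relative of PDK1 (-0.50 ± 0.05, adjusted p = 1.55e-07).

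**Figure D5:**
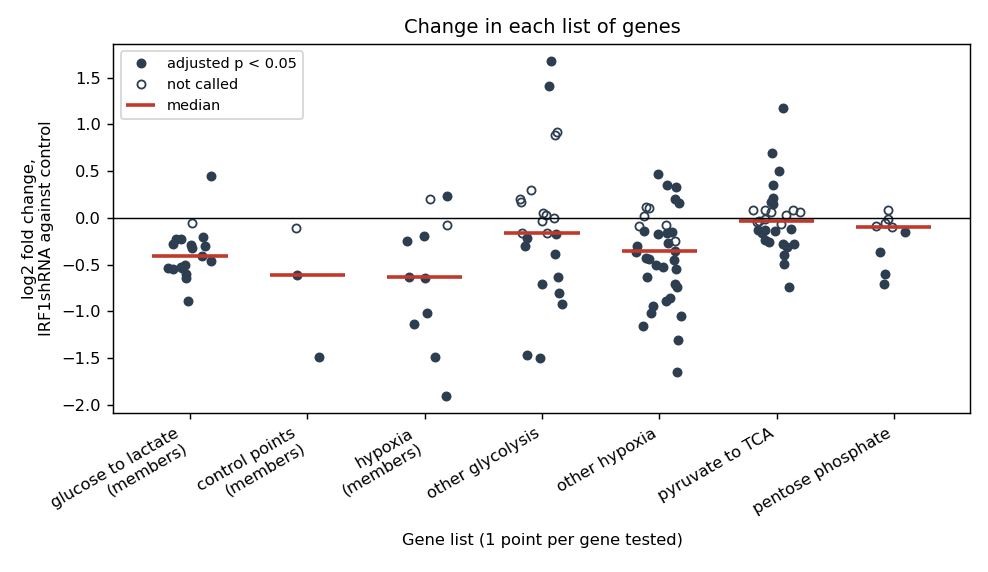
Log2 fold changes of the tested genes of the described groups and of 4 lists of other genes in the same pathways, a point per gene, filled where the adjusted p was under 0.05, with a bar at each list's median. Medians run from -0.63 for the hypoxia members to -0.04 for pyruvate entry and the citric acid cycle, and the median of all genes tested was -0.0024.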

How the data were processed

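The deposited values are raw counts for each gene symbol in 6 libraries, made by the authors (TruSeq Stranded mRNA, RNA from triplicate cultures). The submitters' processing notes name CASAVA 1.8.2, STAR 2.7.9a, featureCounts, DESeq2 1.24.0 and GRCh38.p7, with no role given. The annotation release and use of strand are not given in the sources used here. Columns were matched by sample title. Genes were filtered (filterByExpr, minimum count 10), TMM-scaled and tested by quasi-likelihood in edgeR 4.0.16 under R 4.3.3, with group as the factor and Benjamini-Hochberg adjustment over 18851 genes. The SE is the log2 fold change divided by the square root of F. Alternatives used other scalings, filters, DESeq2 1.42.0, halved counts, thinned libraries, a replicate block, a GC and length correction (mgcv 1.9.3) and omission of each library. Exon lengths came from GENCODE 29 (GRCh38) and join all annotated exons of a gene, so they can exceed the length of a single transcript. All members are accounted for. Values per sample are given for the 8 largest changes with at least 1 CPM, for each role and for exceptions, and from other lists the 2 smallest adjusted p in each direction are named. EPAS1, EGLN2 and VHL are named besides. Members and lists were chosen with earlier results of these data known. The p-values measure the spread between these cultures. The calculations were tested on simulated data.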

Additional observations from a re-analysis of the deposited data

How the results depend on the processing

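The number of members called lower was 27 or 28 under each alternative, and their median log2 fold change ran from -0.48 to -0.41, with -0.46 under the replicate block. Same-numbered samples did not deviate together (correlations 0.0137, 0.025 and -0.0072), so the numbers do not pair the cultures. With the block, PFKFB3 was called lower (-0.11, adjusted p = 0.0379), and no other member's call changed. PFKFB3 was also called with no filter (adjusted p = 0.0384) and without control 1 (-0.16, adjusted p = 0.0121). It did not pass under the other alternatives, where its estimate came as close to 0 as -0.04 (adjusted p = 0.426, GC and length correction). The number called higher was 1 at an adjusted p of 0.01 and between 1 and 2 when single libraries were left out, since SLC2A3 was lost. VEGFA moved between -1.06 and -0.97, so that 4 or 5 members exceeded 2-fold. The ALDOA estimate was 0.0013 with library size only and 0.016 with the GC and length correction, and it ranged from -0.16 to 0.0944 with libraries left out, where EGLN1 ranged from -0.14 to 0.0025. The other 517 values of single members kept their direction and call. The number of genes for pyruvate entry and the citric acid cycle called lower was 8 with upper-quartile scaling, with library size only and without IRF1shRNA 1, and 13 were called higher with the GC and length correction. The cause of these changes was not tested. The median of all genes moved to at most 0.05. EGLN3 was too scarce to compare, and the lowest depth was that of IRF1shRNA 2.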
